A study of Saccharomyces cerevisiae with 2 samples.

Results

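The heme synthesis pathway and its oxygen-dependent regulation were examined as 10 genes of *Saccharomyces cerevisiae*, of 5699 genes listed in 1 or both tables. The members were taken by gene symbol. They are the 8 enzyme genes *HEM1*, *HEM2*, *HEM3*, *HEM4*, *HEM12*, *HEM13*, *HEM14* and *HEM15*, and the genes of 2 regulators, *HAP1* and *ROX1*. All 10 had reads in both libraries. BYZ1 is a laboratory diploid from the S288c background, the strain of the reference genome. Its labelled genotype is MATa/MATalpha, with his3delta1/his3delta1, leu2delta0/leu2delta0 and ura3delta0/ura3delta0 on both homologs and lys2delta0/+ and met15delta0/+ on one of each pair. ZK2 is labelled as a bioethanol strain, with no genotype or ploidy given, and the study's text does not name it. Both were grown in 25 mL of YPD from an OD600 of 0.05, and RNA was taken in early stationary phase. The labelled YPD held yeast extract at 1 g/L in BYZ1 and 10 g/L in ZK2, and peptone and glucose at 2 g/L each in BYZ1 and 20 g/L each in ZK2, so differences of strain and of labelled medium cannot be told apart. The study's methods describe the richer recipe for BYZ1, and RNA from individual cultures that the tables do not keep apart. Each strain has 1 library, and no test between strains was possible.

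Heme is the iron-bearing ring of cytochromes, catalases and the oxygen-using enzymes of sterol and fatty acid synthesis. In yeast its synthesis starts in the mitochondrion with Hem1, goes on in the cytosol with Hem2, Hem3, Hem4, Hem12 and Hem13, and returns to the mitochondrion for Hem14 and Hem15. Hem13 and Hem14 act on oxygen, so a cell short of oxygen is also short of heme. Hap1 is a zinc-finger protein that binds heme and switches on genes of aerobic growth, among them *ROX1*. Rox1 represses genes used when oxygen is low, and *HEM13* is one of its known targets.

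The BYZ1 library held 4687047 uniquely mapped reads in 5671 genes and the ZK2 library 4571043 in 5605 genes, with a median of 230 and 204 reads a gene. Levels are in RPKM, reads scaled by coding length and by the library's total of reads mapped to genes. Ranges in parentheses are exact 95% intervals that cover counting error only. Reads are not independent molecules, and with 1 library per strain the spread between cultures is not known. The submitters' notes name sacCer2, a build of S288c. Reads of ZK2 that differ from it could be lost in mapping, which the intervals do not cover and which was not tested. The strains were compared by the log2 ratio of RPKM plus 1, ZK2 to BYZ1, over 5080 genes with an RPKM of at least 10 in 1 or both libraries, and a gene whose log2 ratio reached 1 or -1 was counted as past the fold. These genes had a median of -0.17. Past the fold were 926 genes (18.2%), of which 402 (7.91% of those tested) were higher in ZK2 and 524 (10.3%) lower. On the edgeR TMM scale, which sets the median near 0, these counts were 536 and 339, so that higher genes made up 61.3% of the calls instead of 43.4%. *URA3* had 0 reads in BYZ1, which allows an RPKM of up to 0.796, and 123 reads in ZK2. *LEU2* had 1 and 360 reads, in keeping with the deletions on the BYZ1 label. *HIS3*, labelled his3delta1 and not delta0 on both homologs, had 156 and 159 reads, which covered 67.4% of its coding length in BYZ1 and 98.9% in ZK2. Of the genes deleted on a single homolog, *LYS2* had 451 and 993 reads, and *MET17*, the other name of *MET15*, had 145 and 43, more in BYZ1. Of 14 mating-type and haploid genes 4 passed the filter, 0 as higher in ZK2 past the fold and 3 as lower, and of 9 genes of meiosis and spores 3 passed, 0 as higher and 2 as lower.

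None of the 10 members was past the fold as higher in ZK2 and 1, *ROX1*, as lower, against 7.91% and 10.3% of all genes, and 18.2% in either direction. All 10 passed the filter in both libraries. Their median log2 ratio was -0.12, near the -0.17 of all genes. The 2 regulators had lower RPKM in ZK2, and the 8 enzymes went both ways, from *HEM15* at a log2 ratio of -0.65 to *HEM13* at 0.84. For 3 enzymes (*HEM2*, *HEM12* and *HEM13*) the interval of the ratio lay above 1, for 2 (*HEM14* and *HEM15*) it lay below 1, and for *HEM1*, *HEM3* and *HEM4* it held 1. The summed RPKM of the 8 enzymes was 649.5 in BYZ1 and 658.4 in ZK2. While that sum differed little, the 5 cytosolic steps went from 257.0 to 351 and the 3 mitochondrial steps from 393 to 307. The cytosolic rise lay mainly in *HEM2* (66.8 to 106) and *HEM13* (60.3 to 108), and *HEM3* and *HEM4* did not share it. The mitochondrial fall lay mainly in *HEM15* (183 to 116), and *HEM1* did not share it. The steps of a compartment thus did not move as a group.

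**Figure D1:**
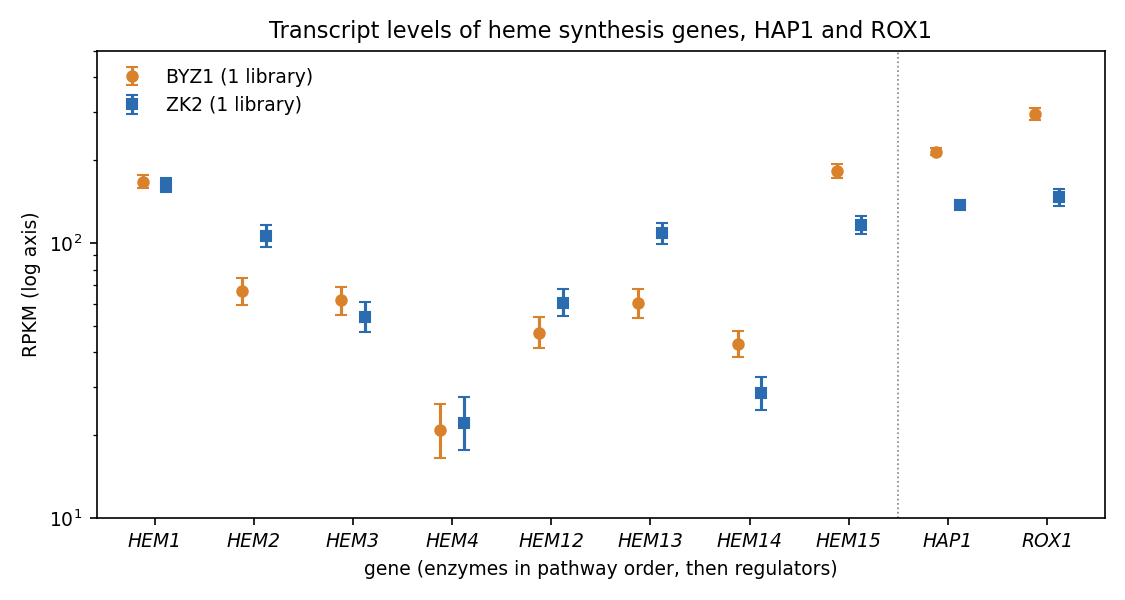
RPKM (log axis) of the 10 members in the BYZ1 library (orange circles) and the ZK2 library (blue squares), enzymes in pathway order to the left of the dotted line. Bars are exact Poisson 95% intervals of the read count. *HEM2* and *HEM13* stand higher in ZK2, and *HEM14*, *HEM15*, *HAP1* and *ROX1* stand lower.

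*HEM1* (YDR232W, chromosome 4, 927449 to 929095, plus strand, in the sacCer2 build of the files) encodes 5-aminolevulinate synthase, the first step, which joins glycine and succinyl-CoA in the mitochondrion. It had 1289 reads and an RPKM of 167 (158 to 176) in BYZ1, and 1225 reads and an RPKM of 163 (154 to 172) in ZK2. The levels overlapped within counting error, with a ratio of 0.974 (0.900 to 1.05). Its log2 ratio was -0.04, and its sign turned to 0.14 on the TMM scale.

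*HEM2* (YGL040C, chromosome 7, 419533 to 420561, minus strand) encodes the enzyme that makes porphobilinogen from 2 molecules of aminolevulinate. It had 322 reads and an RPKM of 66.8 (59.7 to 74.5) in BYZ1, and 499 reads and an RPKM of 106 (97.0 to 116) in ZK2. The intervals did not overlap, and the ratio was 1.59 (1.38 to 1.83). The log2 ratio was 0.66, or 0.83 relative to the median of all genes.

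*HEM3* and *HEM4* encode the enzymes that link 4 porphobilinogens into a chain and close it into a ring. *HEM3* (YDL205C, chromosome 4, 92763 to 93746, minus strand) had 285 reads in BYZ1 and 242 in ZK2, an RPKM of 61.8 (54.8 to 69.4) and of 53.8 (47.2 to 61.0). *HEM4* (YOR278W, chromosome 15, 842816 to 843643, plus strand) had the fewest reads of the 10, 81 in BYZ1 and 84 in ZK2, and the lowest RPKM in both, 20.9 (16.6 to 25.9) and 22.2 (17.7 to 27.5). Neither difference was detectable at this depth. The ratio was 0.871 (0.731 to 1.04) for *HEM3* and 1.06 (0.774 to 1.46) for *HEM4*.

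*HEM12* (YDR047W, chromosome 4, 551859 to 552947, plus strand) encodes uroporphyrinogen decarboxylase, the step before Hem13. It had 241 reads and an RPKM of 47.2 (41.4 to 53.6) in BYZ1, and 302 reads and an RPKM of 60.7 (54.0 to 67.9) in ZK2. The ratio was 1.28 (1.08 to 1.53), and the RPKM intervals of the strains did not overlap by a narrow margin. The coding sequences of *HEM12* and *HEM13* lie 4231 bases apart in the R64 reference, with 2 other genes, *RPC11* and *BAP3*, between them.

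*HEM13* (YDR044W, chromosome 4, 546641 to 547627, plus strand) encodes coproporphyrinogen oxidase, the oxygen-using step of the cytosol, and is the classic example of a yeast gene whose transcript rises when oxygen or heme is scarce. It had 279 reads and an RPKM of 60.3 (53.4 to 67.8) in BYZ1, and 489 reads and an RPKM of 108 (99.0 to 118) in ZK2. ZK2 was thus higher, with no overlap of the intervals and a ratio of 1.80 (1.55 to 2.09), the highest of the 10 members. It could not be set apart from *HEM2*, with a log2 difference of 0.18 (-0.12 to 0.47) that is not detectable at this depth. The log2 ratio of 0.84 was above that of 89.6% of the genes tested, and relative to the median of all genes it was 1.01. *HEM13* was therefore short of the fold on the RPKM scale, and on the TMM and DESeq2 scales it was the 1 member past it as higher. Set against *HEM1* of the same library, its RPKM was 36.1% (31.6 to 41.1) in BYZ1 and 66.6% (59.9 to 74.0) in ZK2.

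The *HEM13* promoter is shown because it holds letters of the Rox1 motif. It is chr4:546392-546691 on the plus strand of R64, 250 bases before the start codon and the first 50 bases of the coding sequence. Capitals mark ATTGTT, the core of the sequence that Rox1 binds.
HEM13 promoter: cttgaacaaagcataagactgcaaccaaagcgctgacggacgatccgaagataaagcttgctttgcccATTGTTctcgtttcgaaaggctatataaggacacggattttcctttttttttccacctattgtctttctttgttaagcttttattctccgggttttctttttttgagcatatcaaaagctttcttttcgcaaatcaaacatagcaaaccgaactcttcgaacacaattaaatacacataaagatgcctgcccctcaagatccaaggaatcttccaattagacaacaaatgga
The match starts 182 bases before the start codon. With 500 bases searched, *HEM13* held another match 471 bases before it, and *ROX1*, whose protein is known to repress its own gene, held matches 464 and 393 bases before its start codon. The sites are given with 12 bases on each side, on the plus strand, and the first *ROX1* site reads AACAAT because the match is on the opposite strand.
HEM13, 471 before (chr4:546159-546188): attttaatttcaATTGTTtagaaagtgcct
HEM13, 182 before (chr4:546448-546477): cttgctttgcccATTGTTctcgtttcgaaa
ROX1, 464 before (chr16:679217-679246): attactatgcaaAACAATtggaaatctggt
ROX1, 393 before (chr16:679288-679317): agaaaagggcctATTGTTgctgcctctttt

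These letters are common. ATTGTT, searched on both strands, was in 6 of the 10 promoters (*HEM3*, *HEM13*, *HEM14*, *HEM15*, *HAP1* and *ROX1*) and in 35.2% of 6001 promoters of the same length. The *HEM15* match lay inside the coding sequence, and the *ROX1* match in this window started 4 bases before the start codon and ran into it. The longer form ATTGTTCTC, which overlaps it and was chosen after the *HEM13* promoter was seen, was in 0.717% of promoters and in 3 of the members, *HEM13*, *HEM14* and *HAP1*. CCAAT, the letters bound by the Hap2/3/4/5 complex, was in 5 members (*HEM2*, *HEM3*, *HEM4*, *HEM13* and *HEM14*) and in 43.3% of promoters. The *HEM13* match to CCAAT was inside the coding sequence. A form of the Hap1 site, CGG followed after any 3 bases by TANCGG, was in 0 of the members and 0.133% of promoters, and TCGTATA, letters of the hypoxic response element, in 0 and 4.15%. A match describes the S288c reference only, and the ZK2 promoters were not analysed here.

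*HEM14* (YER014W, chromosome 5, 182599 to 184218, plus strand) encodes protoporphyrinogen oxidase, the other oxygen-using step, in the mitochondrion. It had 326 reads and an RPKM of 42.9 (38.4 to 47.9) in BYZ1, and 210 reads and an RPKM of 28.4 (24.7 to 32.5) in ZK2. ZK2 was lower with no overlap, and the ratio was 0.661 (0.553 to 0.788). The 2 oxygen-using steps thus went opposite ways, and the log2 ratio of *HEM13* exceeded that of *HEM14* by 1.44 (1.12 to 1.77, counting error only, reads without a pseudocount). That difference does not depend on the scale set between libraries.

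The level of *HEM14* itself is uncertain. Reads covered 78.21% of its coding length in BYZ1 and 77.84% in ZK2, leaving 353 and 359 bases bare. Of 1028 genes of like length and RPKM in BYZ1, 15 were covered less, and of 1047 in ZK2, 14. In R64 the opposite strand holds an overlapping gene, *BUD25* (YER014C-A), which has no row in either table. Because of it, 344 of the 1620 bases of *HEM14* (21.2%) lie in no stretch of 49 bases that is unique among coding sequences, a number near that of the bare bases, whose positions the tables do not give. Counted over the other 1276 bases, the same reads come to an RPKM of 54.5 in BYZ1 and 36.0 in ZK2. The ratio between strains is the same either way. The sources used here do not say whether counting used strand, so reads of *HEM14* and of *BUD25* cannot be told apart.

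*HEM15* (YOR176W, chromosome 15, 662402 to 663583, plus strand) encodes ferrochelatase, which puts iron into the ring as the last step. It had 1012 reads and an RPKM of 183 (172 to 194) in BYZ1, and 628 reads and an RPKM of 116 (107 to 126) in ZK2. The ratio was 0.636 (0.575 to 0.704) and the log2 ratio -0.65, or -0.48 relative to all genes. *HEM15* and *HEM14* differed in log2 ratio by -0.05 (-0.34 to 0.23), which is not detectable at this depth. Against *HEM1*, *HEM15* stood at 109% (101 to 119) in BYZ1 and 71.4% (64.8 to 78.7) in ZK2.

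**Figure D2:**
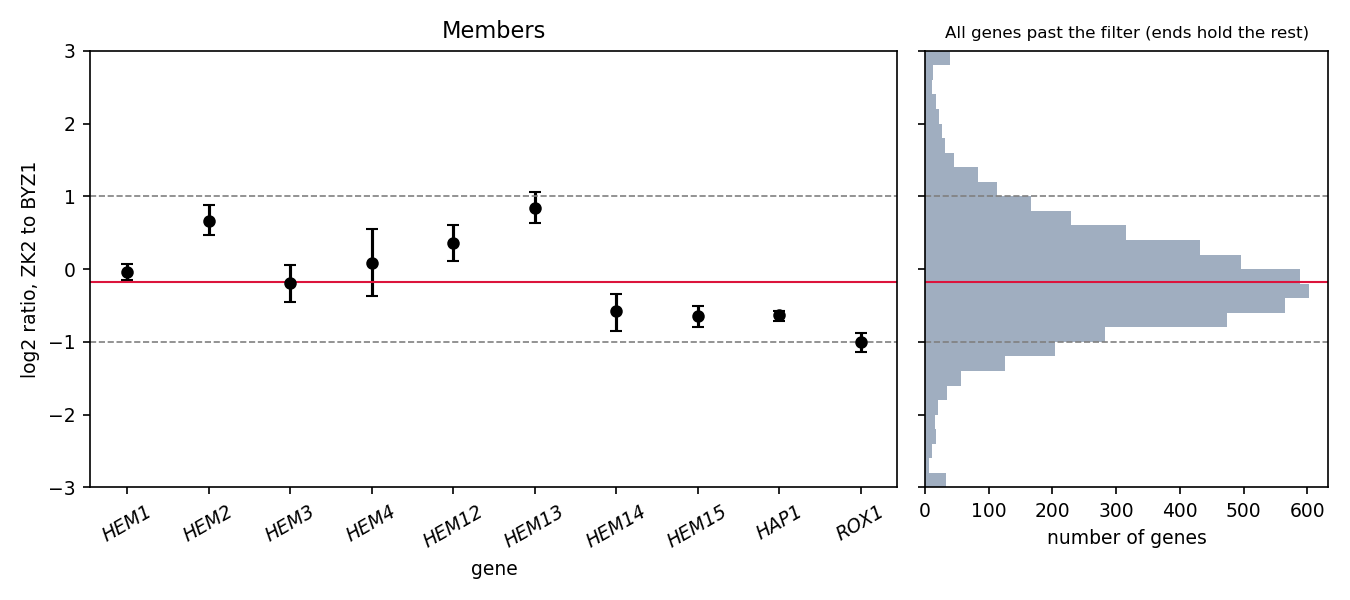
Left, log2 ratio of ZK2 to BYZ1 for each member, with points on the scale of RPKM plus 1 and bars for the exact 95% interval of the ratio of reads without the added 1. Right, the same log2 ratio for the 5080 genes past the filter, with values beyond 3 put in the end bins. Dashed lines mark log2 ratios of -1 and 1 and the red line the median of all genes, -0.17. *HEM13* stands highest at 0.84 and *ROX1* lowest at -1.01.

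*HAP1* (YLR256W, chromosome 12, 646417 to 650925, plus strand) encodes the heme-responsive activator, and its coding sequence of 4509 bases is the longest of the 10. S288c is known to carry a Ty1 retrotransposon in the end of this gene, which changes the carboxy terminus of Hap1 and lowers its activity. In R64 the gene runs from 646415 to 650923 and the element YLRWTy1-3, of 5920 bases, from 650824 to 656743 on the same strand. The reading frame thus ends with 100 bases of Ty1, 2.22% of its length. The end of the coding sequence is shown because it holds that junction, as chr12:650764-650923 of R64, plus strand, with the bases inside the element in capitals.
HAP1 end: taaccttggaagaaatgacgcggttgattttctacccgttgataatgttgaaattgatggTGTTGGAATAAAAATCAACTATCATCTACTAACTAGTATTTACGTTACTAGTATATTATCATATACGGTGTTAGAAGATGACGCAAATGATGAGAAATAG

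**Figure D3:**
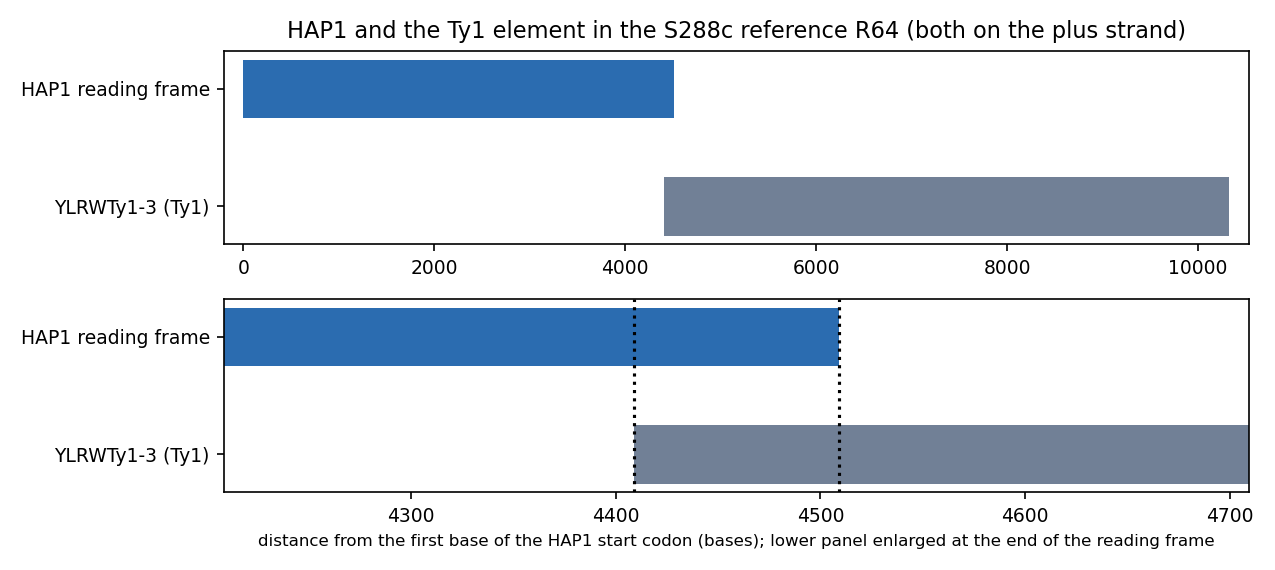
The *HAP1* reading frame (blue) and the Ty1 element YLRWTy1-3 (grey) in R64, by distance in bases from the *HAP1* start codon, with the end enlarged in the lower panel. Dotted lines bound the 100 bases that both share.

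*HAP1* had 4538 reads and an RPKM of 215 (209 to 221) in BYZ1, and 2838 reads and an RPKM of 138 (133 to 143) in ZK2. The strain whose reference carries the insertion had the higher level, with a ratio of ZK2 to BYZ1 of 0.641 (0.612 to 0.672). The log2 ratio was -0.64, or -0.47 relative to the median of all genes, and 23.3% of genes had a lower one. The ratio of *HAP1* and that of *HEM15* could not be set apart at this depth, with a log2 difference of -0.01 (-0.17 to 0.15).

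The 100 shared bases bear on what the *HAP1* count holds. Each of the 52 stretches of 49 bases wholly inside the element occurs 56 to 77 times in the R64 genome, and once among its coding sequences. Reads from other Ty1 copies can therefore match this end as well. The BYZ1 total equals the number of reads that the study lists as unique matches to genes. Where uniqueness is judged among genes, such reads would be counted as *HAP1* reads. For ZK2 the basis is not given, and the part of such reads in the *HAP1* count was not tested. Reads covered 99.45% of *HAP1* in BYZ1, which left 25 bases bare, and 97.92% in ZK2, which left 94 bare. Genes of like length and RPKM had a median cover of 99.55% (47 genes) and 99.48% (61 genes), and 20 and 6 of them were covered less than *HAP1*. The 8 members other than *HAP1* and *HEM14* were covered over 97.15 to 99.92% in BYZ1 and 93.12 to 99.42% in ZK2. The bare bases in ZK2 are thus about as many as the 100 in the element, and the tables do not give where they lie. The Ty1 coding sequence beside *HAP1*, YLR256W-A, had 9 reads in BYZ1, which covered 5.14% of it, and 0 in ZK2. Counts are of uniquely mapped reads, so reads of YLR256W-A that also match the coding sequence of another Ty1 copy would be left out. The RPKM of up to 0.496 that a count of 0 allows in ZK2 bounds unique reads only, not the expression of this sequence. The *HAP1* allele of ZK2 was not analysed here.

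**Figure D4:**
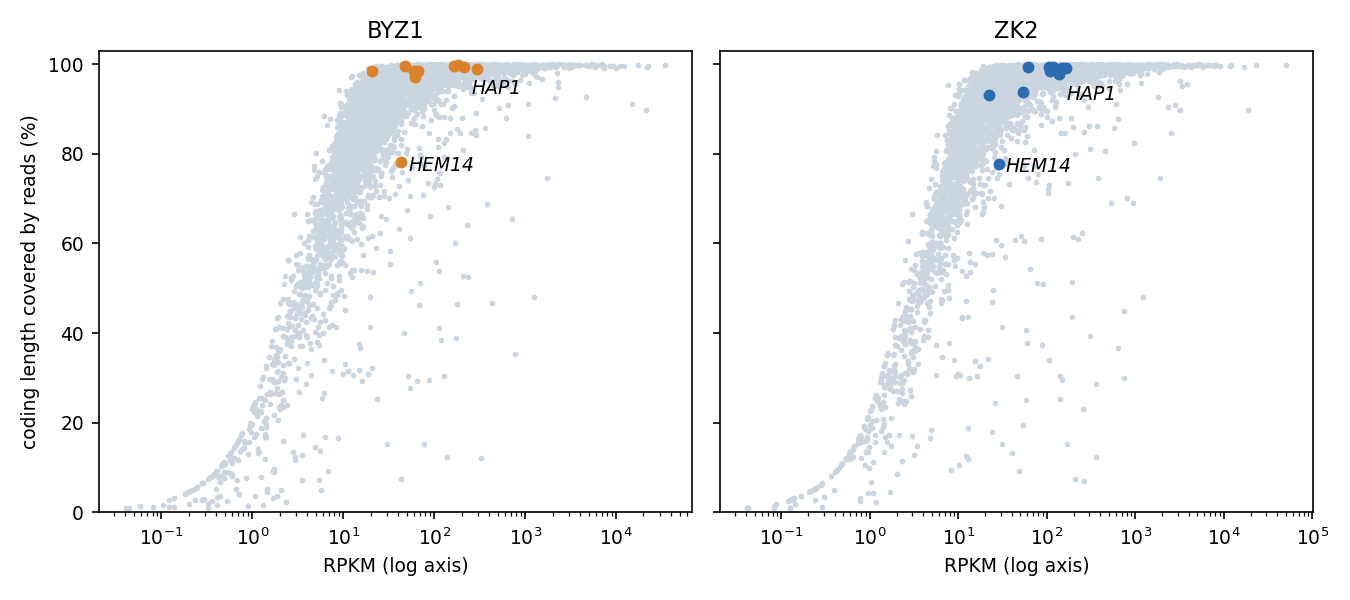
Percent of coding length covered by reads against RPKM (log axis) for every gene with reads in BYZ1 (left) and ZK2 (right), with the 10 members in color. *HEM14* lies below genes of like RPKM at 78.21% and 77.84%, and *HAP1* has 99.45% in BYZ1 and 97.92% in ZK2.

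*ROX1* (YPR065W, chromosome 16, 679690 to 680796, plus strand) encodes the repressor of hypoxic genes. It had 1532 reads and an RPKM of 295 (281 to 310) in BYZ1, the highest of the members, and 741 reads and an RPKM of 146 (136 to 157) in ZK2. The ratio was 0.496 (0.454 to 0.542). The log2 ratio of -1.01 passed the fold by 0.01, 10.0% of genes had a lower one, and it was -0.83 relative to the median of all genes and on the TMM scale, so the call rests on the scale. *ROX1* was lower than *HAP1* by a further log2 difference of -0.37 (-0.51 to -0.23). *HEM13*, a gene that Rox1 represses, and *ROX1* went opposite ways, and their log2 ratios differed by 1.86 (1.61 to 2.10).

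The order of the members also differed between the libraries. In BYZ1 it ran *ROX1*, *HAP1*, *HEM15*, *HEM1*, *HEM2*, *HEM3*, *HEM13*, *HEM12*, *HEM14* and *HEM4* from high to low RPKM. Neighbors that could not be set apart by counting error there were *HEM2* and *HEM3*, *HEM3* and *HEM13*, and *HEM12* and *HEM14*. In ZK2 it ran *HEM1*, *ROX1*, *HAP1*, *HEM15*, *HEM13*, *HEM2*, *HEM12*, *HEM3*, *HEM14* and *HEM4*. There *ROX1* and *HAP1*, *HEM15* and *HEM13*, *HEM13* and *HEM2*, *HEM12* and *HEM3*, and *HEM14* and *HEM4* were not set apart. With *HEM14* counted over its unique bases, at 54.5 and 36.0, it would stand above *HEM12* in BYZ1 and keep its place in ZK2. The enzymes spanned a range of 8.75 times in BYZ1 and 7.33 times in ZK2.

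The genes around the pathway were read from lists, which share some genes. Of all genes past the filter, 7.91% were higher in ZK2 past the fold and 10.3% lower. Of 13 genes of heme supply, attachment and breakdown, 2 of the 10 past the filter were higher in ZK2 past the fold and 0 lower, with a median log2 ratio of 0.09 over all 13. *COX15*, which makes heme A for cytochrome oxidase, had 1018 reads and an RPKM of 149 in BYZ1 and 3707 reads and an RPKM of 555 in ZK2, a log2 ratio of 1.89. *HMX1*, the heme oxygenase that breaks heme down, had an RPKM of 33.5 and 105 and a log2 ratio of 1.62. *HMX1* also belongs to the iron regulon.

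Of 11 genes known to need Hap1, 6 were higher in ZK2 past the fold and 1 was lower, against 7.91% and 10.3% of all genes. Their median log2 ratio was 1.11 against the -0.17 of all genes. Of the higher genes, the study had named *ERG2*, *ERG5*, *ERG11* and *ERG25* as *HAP1*-regulated and higher in its bioethanol strain than in BYZ1. The count and the median are therefore not independent of that earlier result. *HMG1* and *YHB1* were the other higher genes. Short of the fold were *CYC1* (log2 ratio of 0.86), *CYC7* (0.67), *CYB2* (-0.05) and *CYT1* (-0.44). *YHB1*, the flavohemoglobin that removes nitric oxide, stood at an RPKM of 169 in BYZ1 and 1626 in ZK2, a log2 ratio of 3.25. *ERG25*, a sterol C-4 methyl oxidase, had an RPKM of 661 and 4876 and a log2 ratio of 2.88. The 1 lower gene was *CTT1*, the cytosolic catalase, at an RPKM of 756 and 95.7 and a log2 ratio of -2.97. Other factors act on these genes too, and the part of Hap1 in their levels was not tested.

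Of 13 genes known to be repressed by Rox1, *HEM13* not among them, 8 passed the filter. Among these, 3 were higher in ZK2 past the fold and 1 lower, against 7.91% and 10.3% of all genes. The median log2 ratio of all 13 was 0.69. *TIR3*, a cell wall mannoprotein of cells without oxygen, had 37 and 175 reads, an RPKM of 9.75 and 47.3, and a log2 ratio of 2.17. *OLE1*, the fatty acid desaturase, had an RPKM of 2618 and 6519 and a log2 ratio of 1.32. *COX5B* was the lower gene, at 68 and 31 reads, an RPKM of 31.8 and 14.9 and a log2 ratio of -1.05. That call was lost on the TMM scale. Hypoxic genes with hardly any reads in either library were *ANB1*, with 1 and 3, *AAC3*, with 4 and 4, *DAN1*, with 5 and 1, and *SUT1*, with 8 and 3. The fifth gene below the filter, *TIR1*, had 14 and 21.

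**Figure D5:**
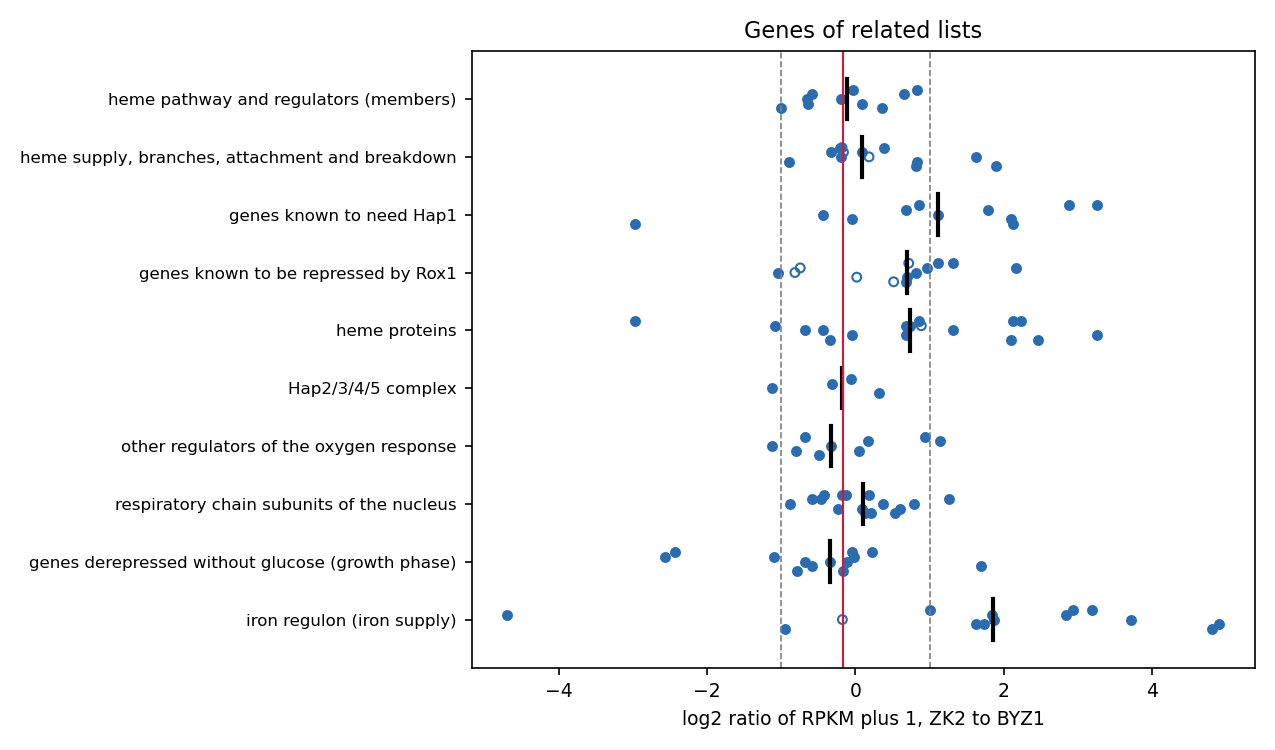
Log2 ratio of ZK2 to BYZ1 for the genes of each list, filled where the gene passed the filter and open where it did not. Black bars are the median of the list, dashed lines log2 ratios of -1 and 1, and the red line the median of all genes, -0.17. Genes that need Hap1 have a median of 1.11 and the iron regulon one of 1.86, while the members have -0.12. The lists were chosen with earlier results of these data known.

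Heme proteins, which carry the product of the pathway, held genes past the fold in both directions. Of 17, 16 passed the filter, 6 were higher in ZK2 past the fold and 2 lower, with a median log2 ratio of 0.73. Over all genes 7.91% were higher and 10.3% lower, and the 2 lower heme proteins are near that share. *YHB1* and *CYB5*, the cytochrome b5 of sterol and lipid oxidation, led the higher ones, and *CYB5* had 28 and 158 reads, an RPKM of 16.5 and 95.2 and a log2 ratio of 2.46. The lower ones were both catalases, *CTT1* and the peroxisomal *CTA1*, the latter at an RPKM of 965 and 455 and a log2 ratio of -1.08. On the TMM scale *CTT1* alone was past the fold as lower. Of 16 nuclear genes of the respiratory chain, 1 was higher and 0 lower, with a median log2 ratio of 0.11. It was *COX7*, at an RPKM of 289 and 691 and a log2 ratio of 1.25.

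Of the Hap2/3/4/5 complex, which activates respiratory genes, *HAP4* was the 1 of 4 genes past the fold, lower in ZK2, at an RPKM of 303 and 138 and a log2 ratio of -1.12, a call lost on the TMM scale. Of 9 other regulators of the oxygen response, a list that holds *HAP4* again, 1 was higher and 1 lower. These 2 counts are near the 7.91% and 10.3% of all genes, and the median log2 ratio was -0.33. The higher one was *TUP1*, the corepressor that Rox1 recruits, at an RPKM of 140 and 311 and a log2 ratio of 1.14. *TUP1* and *ROX1* thus went opposite ways between the strains.

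Genes that answer to iron and to glucose were read as well. Of 14 measured genes of the iron regulon, which is switched on when iron is short, 13 passed the filter. Among these, 11 were higher in ZK2 past the fold and 1 lower, against 7.91% and 10.3% of all genes. The summed RPKM of all 14 was 1088 in BYZ1 and 17398 in ZK2. *FIT2* and *FIT3* made up 14329 of the latter sum, and without them the sums were 591 and 3069. *FIT2* and *FIT3*, cell wall proteins that hold siderophores, had log2 ratios of 4.90 and 4.80. The lower gene, *ARN2*, a siderophore transporter, had 223 reads in BYZ1 and 0 in ZK2, which allows an RPKM of up to 0.343. Of 13 genes derepressed without glucose, 1 was higher past the fold and 3 were lower, against 7.91% and 10.3% of all genes. Most of the list was short of the fold, with a median log2 ratio of -0.34. The higher one was *SIP4*, at an RPKM of 25.8 and 85.2 and a log2 ratio of 1.69. Lowest were *HXK1*, at an RPKM of 368 and 61.1, and *ADH2*, at 15126 and 2807. The part of iron, growth phase and glucose in the members' levels was not tested.

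Yeast holds pairs of genes of which 1 member serves with oxygen and the other without, and 5 such pairs were read as the ratio of the aerobic to the hypoxic gene per length. For *CYC1* and *CYC7*, the 2 forms of cytochrome c, it was 7.65 (5.59 to 10.7) in BYZ1 and 8.58 (6.70 to 11.1) in ZK2, a log2 difference of 0.17 (-0.41 to 0.74) that is not detectable at this depth. For *COX5A* and *COX5B*, the 2 forms of a cytochrome oxidase subunit, it was 60.3 (47.5 to 77.8) and 187 (132 to 276), a log2 difference of 1.63 (1.02 to 2.25). For *HMG1* and *HMG2*, the 2 HMG-CoA reductases, it was 1.43 (1.29 to 1.59) and 2.53 (2.36 to 2.70), a log2 difference of 0.82 (0.64 to 0.99). Both of these ratios were higher in ZK2, on the side of the aerobic gene, with no overlap of the intervals. The hypoxic gene *HMG2* was itself higher in ZK2, at an RPKM of 42.8 and 84.7, and *HMG1* rose more, from 61.4 to 214. The ADP/ATP carriers *PET9* and *AAC3* had 7384 and 4 reads in BYZ1 and 7507 and 4 in ZK2. *HYP2* and *ANB1*, near-identical copies of a translation factor whose counts are uncertain for that reason, had 2729 and 1 reads in BYZ1 and 8761 and 3 in ZK2.

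The genes nearest to *HEM13* in level, by Euclidean distance of log2 RPKM plus 1 over the 2 libraries, were *NCR1* (RPKM of 62.3 in BYZ1 and 107 in ZK2), *PHM8* (56.8 and 108) and *DPP1* (57.1 and 105). Those nearest to *HAP1* were *YAK1* (213 and 139), *PRE10* (213 and 135) and *SHP1* (208 and 137). With 2 libraries such likeness is easily met.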

How the data were processed

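Poly(A) RNA was sequenced by the authors on an Illumina HiSeq instrument, and 1 table per strain was deposited. Per the study's methods, reads with adapters or low quality were removed and the rest aligned with SOAPAligner, whose version, and the aligner of ZK2, are not given in the sources used here. The deposited read count of each gene is of uniquely mapped reads, not normalized. The deposited RPKM is that count scaled by the listed coding length and by the total of gene reads, and the deposited coverage, in percent of coding length, was used as given, as was the listed length. The submitters' processing notes name sacCer2, and gene coordinates are of that build. Sequences were read from R64 at its own annotation, by RefSeq, to which 5693 genes matched.

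Intervals are exact Poisson for levels and Clopper-Pearson, on the share of reads from ZK2, for ratios. Differences of 2 log2 ratios carry a normal approximation of the counting error. Like genes had a length within 1.5 times and an RPKM within 2 times. No count model was fitted: edgeR 4.0.16 and DESeq2 1.42.0 gave scale factors only, with R 4.3.3, and the rest used Python 3.11.15, pandas 2.3.3 and scipy 1.17.1. The steps were tested on simulated data. The text names all 10 members, the 5 gene pairs, at most 2 genes of each list in each direction past the fold, and the 3 genes nearest to *HEM13* and *HAP1*. YLR256W-A, *BUD25*, *RPC11*, *BAP3*, *DAN1*, *SUT1*, *TIR1*, the label's marker genes and the motif ATTGTTCTC were chosen after values were seen. The same holds for *ERG2*, *ERG5*, *ERG11*, *CYT1* and *CYB2*. The members and lists were chosen with earlier results of these data known. Alternatives were other scales, pseudocounts of 0.1 and 5, no filter, a filter at an RPKM of 50, totals without the 10 genes of highest RPKM and promoters of 500 bases.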

Additional observations from a re-analysis of the deposited data

How the results depend on the processing

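No paired analysis was possible because each strain has 1 library. A reversal was looked for only in a member past the fold, which was *ROX1*, and its sign held in the alternatives run. Of 263 values, 213 were labelled unchanged. For ratios and levels this meant within counting error, and for counts within 1.5 times. For medians it meant within the standard deviation of the members' log2 ratios. With totals without the 10 genes of highest RPKM, 18 levels of members moved beyond counting error. *HEM1* in BYZ1 went from 167 to 191, and *ROX1* in BYZ1 from 295 to 338. The levels of *HEM4* and the log2 ratios of the members stayed within it. On the edgeR TMM and the DESeq2 scale, 1 member (*HEM13*) was past the fold as higher and 0 as lower. By construction both scales set the median of all genes near 0. The genes lower in ZK2 then numbered 339 and 335, the list of Rox1 targets had 0 lower, the heme proteins 1 lower, the Hap2/3/4/5 complex 0 lower, and the other oxygen regulators 2 higher and 0 lower, on both scales. With a pseudocount of 5, 0 members and 0 genes of the Rox1 list were past the fold as lower. With a filter at an RPKM of 50, fewer genes were tested, and 274 genes were lower, the Rox1 list had 1 higher and 0 lower, and the iron regulon 0 lower. In promoters of 500 bases CCAAT was in 8 members and TCGTATA in 1, *HEM12*. The log2 ratios of the members kept within counting error in 60 of 68 alternatives, and the other 8 were *HEM1*, *HEM15*, *HAP1* and *ROX1* on the TMM and DESeq2 scales. Among the 60, the 10 without a filter and the 8 with a filter at an RPKM of 50 could not change. A filter leaves the ratio of a gene as it was. Depth limits *HEM4* most, at 81 and 84 reads.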
